A study of Mus musculus with 3 samples.

Results

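The narrow Suz12 peaks of mouse small intestinal crypts are the autosomal peaks (chromosomes 1 to 19) of at most 300 bp in the deposited Suz12 peak list, chosen by their measured width alone. There were 436 of them among 1464 autosomal peaks, which is 29.8% (95% interval 27.4 to 32.2), and among 1477 peaks in all. The other 1028 autosomal peaks are called wider peaks below. Width was measured from the same library as the Suz12 value, so both are given as descriptions and support nothing else.

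Suz12 is a core subunit of Polycomb repressive complex 2 (PRC2), the enzyme that trimethylates lysine 27 of histone H3 (H3K27me3), a mark of repressed chromatin. PRC2 is known to be held at CpG-rich sites, from which the mark spreads into broad domains. In the intestinal crypt, where stem and progenitor cells divide, PRC2 is known to repress genes of other lineages. A narrow Suz12 peak may thus be a flank of a larger bound region or a site of its own, and the deposited lists allow the positions and the H3K27me3 at both kinds to be compared.

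Chromatin came from small intestinal crypts of C57BL/6 mice with the genotype Lgr5Gfp-CreERT2, an allele that puts a green fluorescent protein and a tamoxifen-inducible Cre recombinase under the stem cell gene Lgr5. Whole crypts were used, so the libraries hold stem cells together with their progeny, and all 3 libraries (an input without antibody, Suz12 and H3K27me3) share strain and genotype. No age, treatment or number of animals is given in the labels. Each antibody had 1 library, so values carry no replicate error, no p-value is given, and the input was not analysed here. The lists hold no read counts, so the depth behind a peak is unknown. Both lists begin at a peak value of 8. The value is the authors' own score per peak, of unstated scale, and was compared only within a list. Exact 95% binomial intervals (Clopper-Pearson for shares, order statistics for medians) reflect counting error alone, as if neighbouring peaks were independent. No sequence is shown and no gene was assigned by position, since no mm9 genome or annotation was used here. The few genes named are background knowledge of the mm9 map.

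Narrow peaks were weak within the Suz12 list. Their Suz12 value ran from 8 to 27.7 with a median of 9.77 (quartiles 8.84 and 11.2), against a median of 13.4 (10.7 and 17.4) in wider peaks. A value under 10 was found in 245 narrow peaks (56.2%) and in 20.1% of wider peaks. Only 25 narrow peaks reached 15. Together the narrow peaks covered 104.5 kb, or 10.1% of the sequence in autosomal Suz12 peaks. Their median width was 237 bp, and 58 had exactly 200 bp, the smallest width in the list.

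The 300 bp limit does not fall at a break in the data. Just inside it lay peaks on chromosome 6 at 120617769-120618068 (300 bp, value 15.4), chromosome 13 at 97842160-97842458 (299 bp, 10.7) and chromosome 17 at 44871624-44871922 (299 bp, 12.5). Just outside it, at the next width, lay peaks on chromosome 8 at 86399785-86400085 (value 12.8) and on chromosome 11 at 96122184-96122484 (8.31) and 96139014-96139314 (13.3). The values on both sides of the limit spanned overlapping ranges.

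Narrow peaks fell into satellites and stand-alone peaks in nearly equal numbers. A satellite lay under 1000 bp, edge to edge, from a wider Suz12 peak, and 221 of the 436 did (50.7%, 95% interval 45.9 to 55.5). The other 215 stood at 1000 bp or more. Among all 1464 autosomal Suz12 peaks, 62.6% lay under 1000 bp from a wider peak, and among the wider peaks themselves 67.7% (696 of 1028) had another wider peak that close. Narrow peaks thus had a wider neighbour less often than wider peaks did, and the interval of their share lay below the share of the wider peaks. The wider peaks are also the more numerous class from which every neighbour was drawn.

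The share rests on the distance chosen. It was 38.8% at a limit of 500 bp, 57.6% at 2000 bp and 64.7% at 5000 bp. Peaks just under the 1000 bp limit lay at 977 bp (chromosome 16 at 18586088-18586335 and at 91227722-91227972) and 959 bp (chromosome 19 at 59246280-59246553). Peaks just over it lay at 1043 bp (chromosome 7 at 144508846-144509108), 1048 bp (chromosome 6 at 52186934-52187133) and 1058 bp (chromosome 8 at 12389818-12390083).

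The distances themselves formed one group near wider peaks and another far from them. A gap under 250 bp was found for 111 narrow peaks, one of 250 to 500 bp for 58 and one of 500 to 1000 bp for 52. From 1 to 2 kb there were 30, from 2 to 5 kb 31, from 5 to 20 kb 23 and from 20 to 100 kb only 16. A further 115 (26.4%) had no wider Suz12 peak within 100 kb, and 75 had none within 1 Mb. The distances of wider peaks to another wider peak had a similar shape. They were under 250 bp for 40.6%, from 20 to 100 kb for 2.33% and 100 kb or more for 13.4%. For description, stand-alone peaks were therefore divided at 20 kb, a limit chosen after the distances were seen, into 84 near and 131 remote ones.

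**Figure D1:**
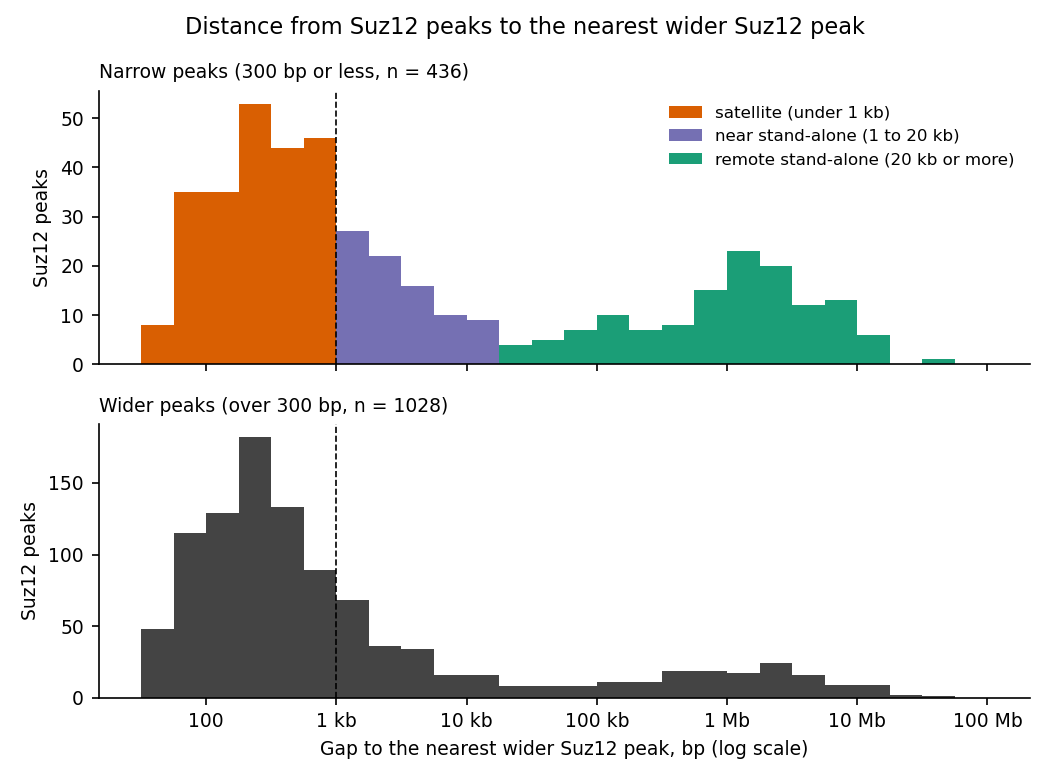
Number of narrow (upper panel) and wider (lower panel) autosomal Suz12 peaks by the gap to the nearest wider Suz12 peak on a log scale, with a dashed line at 1 kb and colours for satellites, near and remote stand-alone peaks. The narrow peaks form a group below 1 kb (221 satellites) and a smaller one around 1 Mb (131 remote peaks), with few peaks between 20 and 100 kb. The wider peaks also have few between 20 and 100 kb (24).

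Satellites sat close to ordinary wider peaks. Their median gap was 249 bp (lowest 51 bp, which was also the smallest gap between any autosomal Suz12 peaks). They belonged to 196 wider peaks, 19.1% of that class, of which 174 had 1 satellite, 19 had 2 and 3 had 3. Wider peaks with a satellite had a median width of 580.5 bp and a median Suz12 value of 13.2. The other wider peaks had 590.5 bp and 13.4, so the medians of both kinds lay close together. In 49 of 221 cases the satellite had the higher Suz12 value of the pair.

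Satellites often shared an H3K27me3 peak with their wider neighbour. Both members of the pair lay on H3K27me3 for 211 satellites, and in 120 of these (56.9%, 95% interval 49.9 to 63.7) it was the same H3K27me3 peak. The gap between the members lay fully within H3K27me3 for 129 of the 221 satellites, partly for 79 and not at all for 13. A break between Suz12 peaks was thus often no break in the mark. Where the members lay on different H3K27me3 peaks, the peak under the wider member had the higher value in 66 of 91 pairs, with medians of 21.4 under the wider member and 17.5 under the satellite. A longer Suz12 peak meets a broad H3K27me3 peak more easily, and broad ones tend to have higher values. How far this bears on the pairs was not tested.

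The satellites with the highest Suz12 value, chromosome 18 left aside, illustrate this arrangement. The strongest, on chromosome 8 at 94884661-94884931, had a Suz12 value of 21.7 and lay 161 bp from a wider peak, on an H3K27me3 peak of 2067 bp with a value of 30.1 that was the strongest of its 21.5 kb domain. On chromosome 9 at 71063101-71063362 a satellite of value 18.5 lay 65 bp from its wider neighbour, over an H3K27me3 peak of value 26.4. The satellite on chromosome 5 at 67999882-68000108 (value 17.5) lay 55 bp away, over an H3K27me3 peak of value 21.4. Those on chromosome 6 at 88143455-88143723 (17.5) and chromosome 4 at 99324204-99324437 (16.4) had H3K27me3 values of 25.4 and 25.7. The last was tied at 16.4 with satellites on chromosomes 7, 11 and 13, whose H3K27me3 values were 24.9, 26.8 and 23.0. The 5 placed by coordinates lay within 161 bp of the wider peak, on H3K27me3 peaks above the list's typical value.

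H3K27me3 was called at nearly all narrow peaks. An H3K27me3 peak overlapped 413 of the 436 by at least 1 bp (94.7%, 95% interval 92.2 to 96.6), against 97.1% of all 1464 autosomal Suz12 peaks and 98.2% (97.1 to 98.9) of the wider ones. The share was 95.5% (91.8 to 97.8) in satellites and 94.0% (89.9 to 96.7) in stand-alone peaks, with overlapping intervals. The difference of -1.52 percentage points between stand-alone and satellite peaks could lie anywhere from -7.93 to 4.91 points within these intervals. Narrow minus wider peaks, the share differed by -3.43 points (bounds -6.69 to -0.50). This was -5.52 points for a required cover of 50%, -7.42 against the stronger 50% of H3K27me3 peaks, and -0.10 with H3K27me3 within 1000 bp counted as a match, where 99.3% of narrow peaks matched. A longer peak meets an H3K27me3 peak more easily, and the contribution of length was not tested.

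The H3K27me3 peaks at narrow Suz12 peaks were strong and broad. At the H3K27me3 peak of largest overlap, the value ranged from 8.69 to 40.1 with a median of 20.6 (95% interval 20.2 to 21.4). At wider Suz12 peaks the median was 23.0 (22.3 to 23.6), and the 24676 autosomal H3K27me3 peaks without Suz12 had a median of 11.1 (quartiles 9.52 and 13.8). The median H3K27me3 width was 1575 bp (1463 to 1678) at narrow Suz12 peaks, 1812 bp at wider ones and 367 bp where no Suz12 peak was called. Narrow minus wider peaks, the median H3K27me3 value differed by -2.39 (bounds -3.39 to -0.94), and by -1.54 (-3.53 to -0.24) with each H3K27me3 peak counted once. Averaged within bins of H3K27me3 peak width, the difference was -1.13, without bounds. Some of these H3K27me3 peaks held Suz12 peaks of both classes. The 246 with narrow peaks only had a median width of 1200.5 bp and a median value of 19.4, the 843 with wider peaks only 1197 bp and 20.5, and the 132 with both 2190 bp and 23.0. In all, 64.9% of narrow peaks with H3K27me3 (60.1 to 69.5) lay on a peak among the top 10% of the autosomal list by value (18.5 or more, which 10.4% of that list reached through ties). That share was 69.8% over all autosomal Suz12 peaks with H3K27me3 and 71.8% (68.9 to 74.5) over the wider ones. The intervals of narrow and wider peaks overlap slightly. By class the share was 60.7% (53.7 to 67.3) in satellites, 54.5% (42.8 to 65.9) in near and 78.4% (70.2 to 85.3) in remote peaks. Wider peaks 20 kb or more from another wider one had 79.5%. By this share, satellites and near peaks were lower than wider peaks, and remote peaks were not. By median H3K27me3 value, remote narrow peaks (21.9, 20.5 to 22.6) were lower than remote wider peaks (23.96, 22.8 to 25.4).

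Stand-alone peaks carried H3K27me3 of the same order as satellites. The median value was 21.0 (20.3 to 22.0) at stand-alone peaks and 20.5 (18.6 to 21.5) at satellites, a difference of 0.51 that the intervals allow to lie between -1.23 and 3.43. The median H3K27me3 width was 1542.5 bp (1355 to 1607) at stand-alone peaks and 1664 bp (1503 to 1978) at satellites. Several narrow peaks can share an H3K27me3 peak: the 211 satellites lay on 193 different ones and the 202 stand-alone peaks on 180.

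A broad H3K27me3 peak meets a Suz12 peak more easily and tends to have a higher value, so values were also set side by side within H3K27me3 widths. From 1000 to below 2000 bp, the median H3K27me3 value was 20.6 at 63 satellites, 20.7 at 76 stand-alone peaks and 23.0 at 341 wider Suz12 peaks, against 17.1 in 2089 H3K27me3 peaks without Suz12. From 500 to below 1000 bp it was 18.5, 19.4 and 17.1 in these Suz12 classes and 13.0 without Suz12. Below 500 bp, the 28 satellites and 24 stand-alone peaks had medians of 12.5 and 12.02, and peaks without Suz12 10.2. At 2000 bp and above the medians were 24.1, 25.4 and 25.5, with 21.5 in the absence of Suz12. In each width class both kinds of narrow peak had a higher median than H3K27me3 peaks without Suz12, and below 500 bp the gap was smallest. Against wider Suz12 peaks the direction varied. Both kinds of narrow peak were higher from 500 to below 1000 bp and lower in the other classes (below 500 bp, 13.5 at wider peaks).

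**Figure D2:**
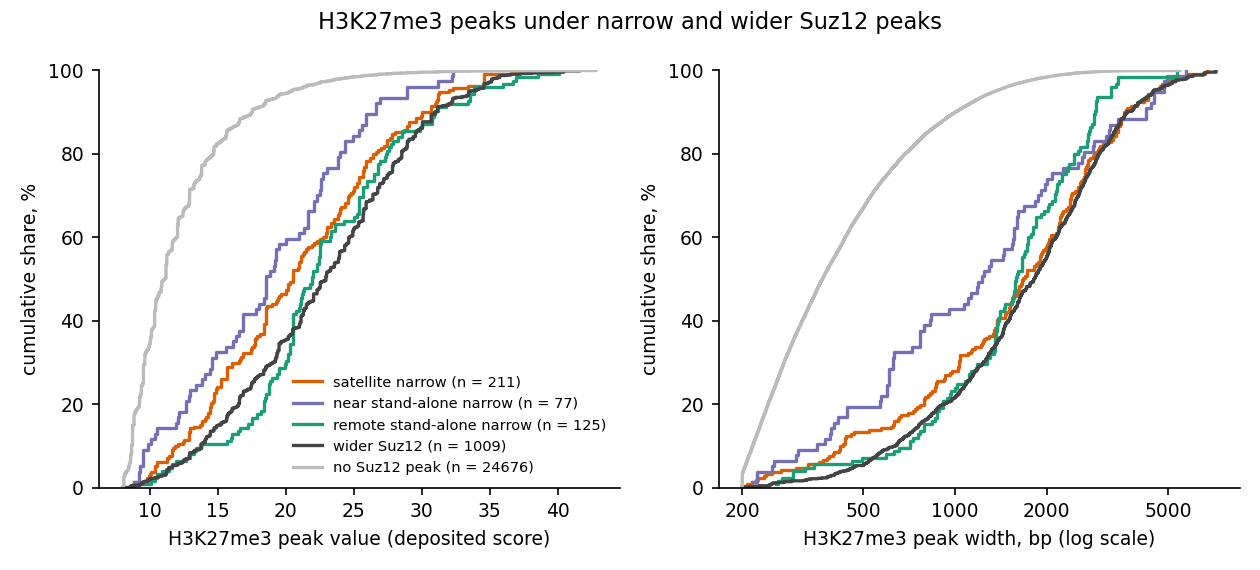
Cumulative share of Suz12 peaks by the value (left, deposited score) and width in bp (right, log scale) of the H3K27me3 peak each overlaps most, for satellite, near and remote narrow peaks and wider peaks, with H3K27me3 peaks that hold no Suz12 peak in grey. The coloured curves lie well to the right of the grey one (medians 18.6 to 23.0 against 11.1), and near stand-alone peaks have the lowest values of the Suz12 classes.

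Near and remote stand-alone peaks lay in domains of different length. A domain here is a run of H3K27me3 peaks with no gap above 5000 bp. Only Suz12 peaks that overlap these H3K27me3 peaks are counted in it, not those in the gaps between them. The median H3K27me3 value was 18.6 (16.9 to 21.4) at the 77 near peaks with the mark and 21.9 (20.5 to 22.6) at the 125 remote ones, and these intervals overlap. The median domain length was 27506 bp (20196 to 33725) around near peaks, 24593 bp (20362 to 25995) around satellites and 9751 bp (8474 to 11075) around remote peaks, whose interval lay apart from those of the other narrow classes. It was 11845 bp (10063 to 13218) around wider peaks as remote as these, an overlapping interval. Part of the contrast between narrow classes is set by the classes, since a remote peak has no wider Suz12 peak within 20 kb. A domain also counts once for each of its peaks. The 77 near peaks lay in 52 domains, the 211 satellites with H3K27me3 in 136 and the 125 remote peaks in 99. The intervals do not allow for this. The domain of a near peak held a median of 19 H3K27me3 and 5 Suz12 peaks, and that of a remote peak 8 and 1.

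Near stand-alone peaks were mostly members of larger Suz12 groups. A wider Suz12 peak stood in the same domain for 74 of 77 near peaks (96.1%) and for 4 of 125 remote peaks (3.20%). Over all stand-alone peaks this share was 38.6% (31.9 to 45.7). The near class thus lay beyond 1000 bp from a wider peak but inside the same stretch of marked chromatin. Another narrow peak lay under 1000 bp away for 30 of the 84 near peaks. The contrast follows in part from the classes themselves, since only near peaks have a wider peak close by.

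Remote peaks were often the only Suz12 peak counted in their domain. Suz12 peaks without H3K27me3 do not enter this count. The chromosome 9 peak at 36952479-36952769, for instance, counts as alone though a narrow peak without H3K27me3 lies 635 bp away. Being alone in this sense was a common state of remote peaks. This held for 74 of 125 (59.2%, 95% interval 50.1 to 67.9), against 12.9% of all autosomal Suz12 peaks with H3K27me3. Part of this difference is set by the class, since every remote peak lies 20 kb or more from any wider peak. Another 47 remote peaks shared a domain with narrow peaks alone, and 22 domains held 2 or 3 narrow peaks and no wider one. In all, 78 remote peaks had no other Suz12 peak of any width within 20 kb, while 31 had another narrow one under 1000 bp away. Of the wider peaks equally far from the next wider peak, 103 of 161 with H3K27me3 were alone in their domain (64.0%, 56.1 to 71.4), an overlapping interval. The H3K27me3 at those remote wider peaks had a median value of 23.96 (22.8 to 25.4), and this interval lay just above that of the remote narrow peaks.

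Remote narrow peaks also tended to lie on the strongest H3K27me3 peak of the domain. This was the case for 83 of 125 (66.4%, 57.4 to 74.6), against 33.8% of all autosomal Suz12 peaks with H3K27me3, 24.2% (18.6 to 30.5) of satellites and 10.4% (4.59 to 19.4) of near peaks. Domains of remote peaks hold fewer H3K27me3 peaks, which raises the share. Remote wider peaks, with the same median of 8 H3K27me3 peaks per domain, were on the strongest peak in 65.2% (57.3 to 72.5). Among peaks alone in their domain, with a median of 7 H3K27me3 peaks, the share was 75.7% (64.3 to 84.9) for 74 remote narrow peaks and 70.1% (60.5 to 78.6) for 107 wider peaks. In both pairings the intervals of narrow and wider peaks overlapped.

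**Figure D3:**
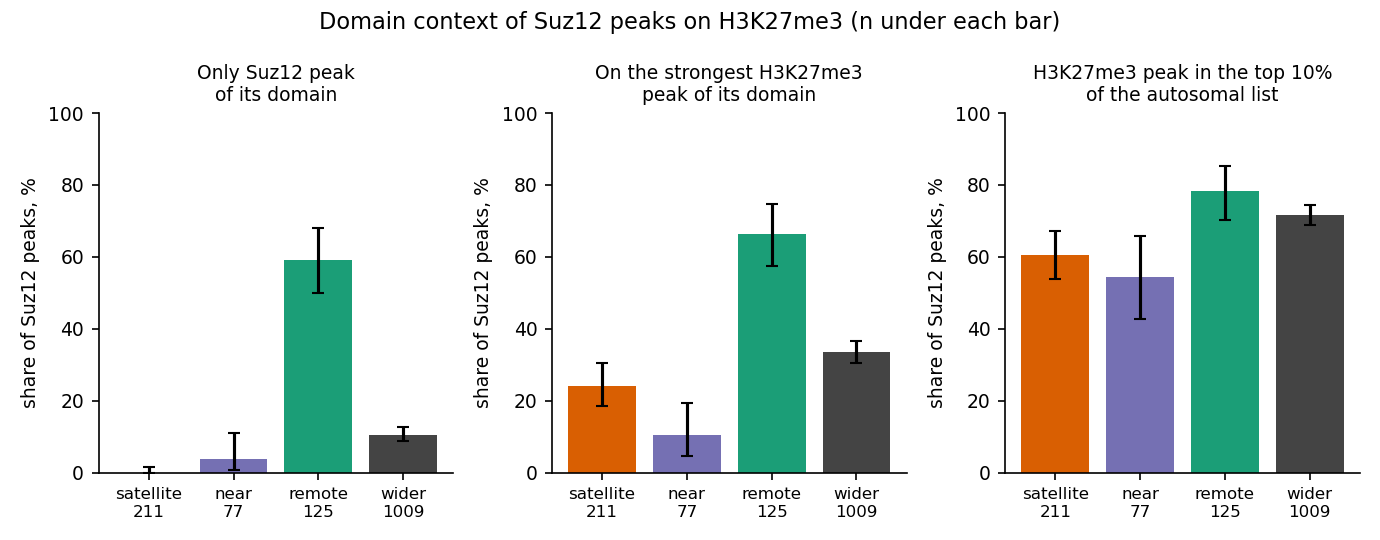
Share (%) of Suz12 peaks on H3K27me3 that are the only Suz12 peak of their domain (left), that lie on the strongest H3K27me3 peak of their domain (middle) and whose H3K27me3 peak is in the top 10% of the autosomal list (right), with exact 95% binomial intervals as error bars and the number of peaks under each bar. Of the 4 classes drawn, remote narrow peaks are highest in the left, middle and right panels (59.2%, 66.4% and 78.4%). Near peaks are lowest in the middle and right panels (10.4% and 54.5%). In the left panel only Suz12 peaks on H3K27me3 are counted in a domain. Satellites are at 0% there, which their class sets in advance, since a wider peak lies under 1000 bp away. In the right panel the intervals of remote and wider peaks overlap, as do those of near peaks and satellites.

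Domains in which 1 narrow peak was the only Suz12 peak were compared with those holding 1 wider peak. The 77 domains of the first kind had a median length of 7961 bp (6534 to 10787) and a median top H3K27me3 value of 22.6 (21.1 to 25.7). The 107 of the second kind had 11043 bp (8382 to 12195) and 25.7 (24.0 to 26.8). Both intervals overlap between the kinds. In the 7165 autosomal domains without Suz12 the medians were 1094 bp and 11.7, and 3421 of them were single peaks, against 4 of the 77. Among these 77 narrow peaks the Suz12 value had a median of 9.48 and reached 16.1 at most.

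The longest domains with a lone narrow peak were far longer than this. On chromosome 7 the peak at 52431679-52431878 had a Suz12 value of 12.5 and was alone in 49.4 kb with 28 H3K27me3 peaks. The peak on chromosome 1 at 134087501-134087744 (value 10.9) was alone in 44.1 kb with 31 H3K27me3 peaks and lay on the strongest of them, at 26.8. The chromosome 12 peak at 112684193-112684392 (value 13) was also on the top peak, at 27.4, of its 24.5 kb domain. The peaks on chromosome 19 at 6497935-6498199 (27.5 kb) and chromosome 2 at 84726794-84727003 (27.3 kb) lay on H3K27me3 peaks of 18.2 and 19.02. In these 5 domains a single narrow peak was the whole of the called Suz12.

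Of the 10 stand-alone peaks with the highest Suz12 value, 8 overlapped H3K27me3. Both exceptions were the strongest. On chromosome 5, the peak at 147072594-147072862 reached 27.7, the highest of any narrow peak, and lay 124 kb from the nearest H3K27me3 peak and 927 kb from any other Suz12 peak. The peak on chromosome 17 at 36368216-36368434 (19.9) lay 615 bp from H3K27me3 and 3.61 Mb from the next Suz12 peak. Next came the lone peak on chromosome 19 named above (16.1).

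The other 7 peaks of that group lay on H3K27me3 of unequal strength. The peak on chromosome 3 at 34547880-34548155 (13.6) lay on the strongest H3K27me3 peak, at 31.2, of a 32.8 kb domain. In the mm9 map this is the upstream side of Sox2, a transcription factor gene of pluripotent and neural cells. The chromosome 11 peak at 102807101-102807379 (13.6) had an H3K27me3 value of 28.6 and another narrow peak 65 bp away. On chromosome 8 at 24085563-24085796 (14.4) the H3K27me3 value was 20.5, and the next wider Suz12 peak was 11.0 Mb away. Chromosome 6 at 30688085-30688349 (15.4), chromosome 12 at 82127796-82128033 (15.4) and chromosome 16 at 35154284-35154560 (14.4) had H3K27me3 values of 20.2, 17.6 and 19.5. The lowest, 10.4, was at the chromosome 5 peak at 28444949-28445161 (15.04). A high Suz12 value thus went with both strong and weak H3K27me3. Across the 413 narrow peaks with H3K27me3, which share the 2 libraries, the Spearman correlation of the Suz12 and H3K27me3 values was 0.066. It was 0.164 over all autosomal Suz12 peaks with H3K27me3 and 0.159 over the wider ones. Narrow peaks span a smaller range of Suz12 values (8 to 27.7, against 8 to 72.5 in wider peaks), and its effect on the correlation was not tested.

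The highest H3K27me3 values at narrow peaks included several at remote Suz12 peaks. Of the 5 narrow peaks with the highest H3K27me3 value, 4 were remote and alone in their domain. Over all 413 narrow peaks with H3K27me3, 74 were. The first, on chromosome 7 at 138080125-138080371, had an H3K27me3 value of 40.1 and a Suz12 value of 11.5. The same values were 38.6 and 9.48 on chromosome 5 (148769172-148769393), 36.9 and 9.14 on chromosome 2 (130121522-130121794) and 36.7 and 8 on chromosome 6 (115944126-115944349). The fifth, on chromosome 11 at 96061162-96061433 (38.1 and 12.4), was a satellite 69 bp from a wider peak. Each of the 5 was on the strongest H3K27me3 peak of its domain, which their choice by highest value makes likely.

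The lowest H3K27me3 values came from domains with further Suz12 peaks. They were 8.69 on chromosome 6 at 52173390-52173650 and 9.25 on chromosome 2 at 115892005-115892220, with 3 peaks at 8.86 (chromosome 10 at 21869030-21869231, chromosome 12 at 120089229-120089452, chromosome 14 at 104858451-104858671). A near peak on chromosome 11 at 63733603-63733811, in a domain with 3 Suz12 peaks, was tied at 9.25. Those on chromosomes 6, 10 and 12 were satellites and the others near peaks, and the domains held between 2 and 51 Suz12 peaks. Further Suz12 peaks in the domain were common in these classes. Of those with H3K27me3, 18.6% of all narrow peaks, 3.90% of near peaks and 0% of satellites were alone in their domain. The 0% follows from the class: all 211 satellites with H3K27me3 shared a domain with their wider neighbour, under 1000 bp away. None of these lowest-value peaks was on the strongest H3K27me3 peak of its domain, which their choice by lowest value makes likely.

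The domains with the most narrow peaks, which also hold many Suz12 peaks in all, included those over Hox genes, which set position along the body axis. The 181 kb domain on chromosome 6 at 52094999-52276321, which spans the Hoxa cluster, held 11 narrow among 51 Suz12 peaks (21.6%, against 29.8% over all autosomal Suz12 peaks). Of these 11, 9 were satellites and 2 stood alone. Their H3K27me3 values ran from 8.69 to 27.5 with a median of 18.98, while the strongest H3K27me3 peak of the domain had 40.4. The narrow peaks there had Suz12 values of 8.05 to 15.4, and the strongest Suz12 peak had 39.7.

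A 57.2 kb domain on chromosome 14 at 122836734-122893973, over the neural genes Zic2 and Zic5, held 7 narrow among 21 Suz12 peaks (33.3%), 6 of them satellites, with a median H3K27me3 value of 14.7. The 112 kb domain on chromosome 11 at 96106630-96218807, over Hoxb genes, held 6 narrow among 22 (27.3%, median H3K27me3 value 18.7). Another 6 of 10 (60%) lay in 17.1 kb of chromosome 14 at 104857165-104874271 (median 14.2). The 111 kb domain on chromosome 2 at 74481475-74592764, over Hoxd genes, held 5 narrow among 36 (13.9%, median 20.5). The narrow shares of the 3 Hox domains were thus not above that of the list as a whole. None of the narrow peaks in these 5 domains reached the domain's top H3K27me3 value. Leaving out the 4 domains with the most Suz12 peaks, the satellite share of narrow peaks was 49.3%.

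**Figure D4:**
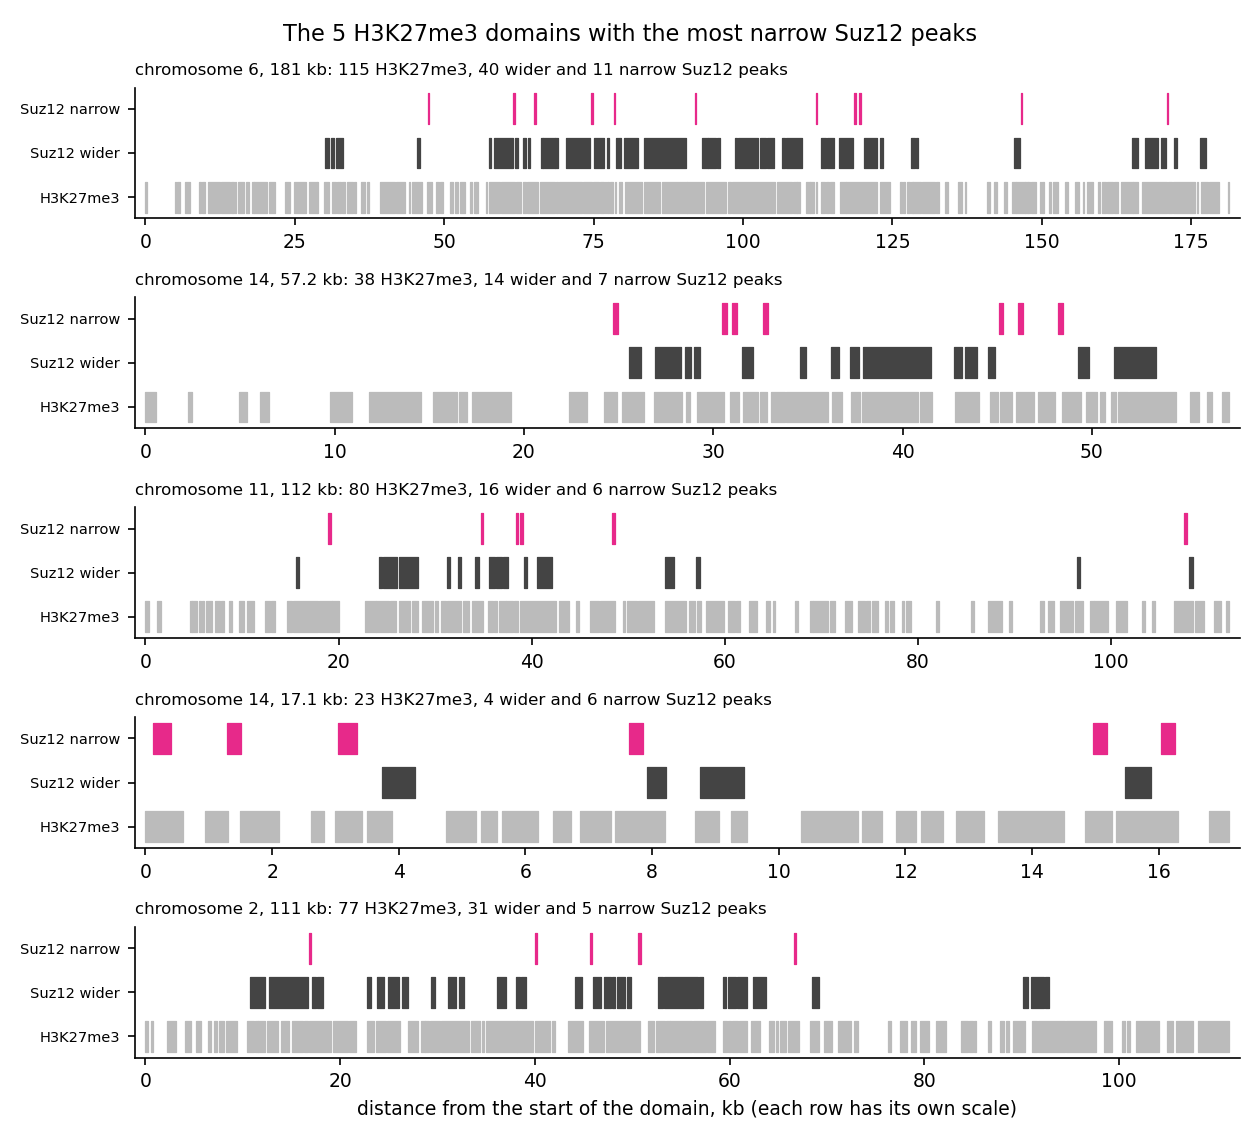
Maps of the 5 H3K27me3 domains with the most narrow Suz12 peaks, in kb from the start of each domain, with H3K27me3 peaks in grey, wider Suz12 peaks in black and narrow Suz12 peaks in pink (each row has its own scale). Most narrow peaks flank wider ones, as 9 of the 11 in the chromosome 6 domain do.

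Narrow peaks without H3K27me3 were few and mostly next to it. There were 23, of which 10 were satellites, 7 near and 6 remote peaks. An H3K27me3 peak lay within 250 bp of 14 of them and within 1000 bp of 20. Beyond 20 kb there were 2, the chromosome 5 peak of value 27.7 and a peak on chromosome 15 at 35227897-35228149 (value 10.3), 460 kb from H3K27me3. The latter was also the narrow peak farthest from any wider Suz12 peak, at 39.1 Mb. The next farthest were a pair of sites on chromosome 16, at 35542013-35542257 (14.95 Mb, H3K27me3 value 25.7) and 35155941-35156228 (14.6 Mb, 23.6), and both lay on the strongest H3K27me3 peak of their domain. Nothing here tested whether the 2 peaks beyond 20 kb from H3K27me3 reflect Suz12 binding.

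Within the H3K27me3 peak, narrow Suz12 peaks were usually fully enclosed. This held for 77.7% (73.4 to 81.6) of the 413, for 74.4% (68.0 to 80.2) of satellites and for 86.4% (79.1 to 91.9) of remote peaks, while longer Suz12 peaks have less chance of it (60.5% of wider ones). The centre of a satellite was a median of 219.5 bp from the nearer edge of its H3K27me3 peak, and that of a remote peak 405 bp. Expressed as a part of the H3K27me3 peak's width, where 0.5 is the middle, these were 0.214 and 0.280. Remote wider peaks were at 0.348.

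The smallest narrow peaks did not carry less H3K27me3. The 58 peaks of exactly 200 bp had a median H3K27me3 value of 22.6 (19.5 to 25.9) and a median Suz12 value of 9.19. Peaks of over 200 to 250 bp had 20.5 (19.4 to 21.6) and 9.76, and those of over 250 bp had 20.5 (19.3 to 21.6) and 10.7. H3K27me3 overlapped 96.6%, 94.4% and 94.5% of these classes. The intervals of the H3K27me3 medians overlapped.

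The list's own gaps bear on what counts as standing alone. Peaks are numbered along each chromosome, and 258 of 1735 numbers are missing from the deposited list, 27.3% of autosomal peaks being next to such a gap. A missing number was adjacent to 43 of 221 satellites (19.5%, 14.5 to 25.3), 44 of 84 near peaks (52.4%, 41.2 to 63.4), 49 of 131 remote peaks (37.4%, 29.1 to 46.3) and 73 of 162 remote wider peaks (45.1%, 37.3 to 53.1). The lower share of satellites follows in part from the class, since each has a listed wider peak under 1000 bp away. Wider peaks that close to another wider peak had 18.1% (15.3 to 21.2). The missing peaks may lie close by or far away, since a number gives order and not position. Whether stand-alone peaks had neighbours that were left out of the list was not tested.

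Narrow peaks were found on all 19 autosomes. As a share of a chromosome's Suz12 peaks they ranged from 19.9% on chromosome 2 (40 of 201, 95% interval 14.6 to 26.1) to 45.9% on chromosome 16 (17 of 37, 29.5 to 63.1). Satellites made up 75% of the 36 narrow peaks on chromosome 6 and 73.1% of the 26 on chromosome 14. On chromosome 13 they made up 28.6% of 28, with 12 near and 8 remote peaks beside them. On chromosome 7, 12 of 24 were remote. Chromosomes 6 and 14 hold the Hoxa and Zic domains described above, with 9 and 6 of these satellites.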

How the data were processed

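Peaks came from 1 Suz12 and 1 H3K27me3 ChIP-seq library of mouse crypts. Per the submitters' processing notes, Bowtie and MACS2 were used with build mm9. Their versions, settings and any use of the input are not given in the sources used here. The authors deposited a score per peak in each list, called the peak value, whose definition is not given. It was used only within a list.

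Peaks overlapped when they shared at least 1 bp. The H3K27me3 peak of largest overlap was taken for each Suz12 peak, and H3K27me3 peaks up to 5000 bp apart were joined into domains. A Suz12 peak belongs to the domain of the H3K27me3 peak it overlaps. Distances are gaps between edges. Intervals are at the 95% level, and those of a difference combine the outer bounds of both. Coordinates are mm9, counted from 1. Regions named are those highest or lowest by a fixed rule: by Suz12 value (10 stand-alone, 5 satellites), by H3K27me3 value (5 and 5), by distance, by number of narrow peaks per domain (5), alone in long domains (5), and beside the limits. Chromosome 18 was left out of named regions, and ties went to the lower chromosome number. The members, rules and alternatives were chosen with earlier results of these data known. The division at 20 kb and the shares on the strongest peak were added after seeing the distances. Python 3.11.15, numpy 2.4.6, pandas 2.3.3, scipy 1.17.1 and matplotlib 3.10.9 were used, and overlap, distance and joining functions were tested on simulated data.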

Additional observations from a re-analysis of the deposited data

Results flagged for a closer look

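Outside the autosomes, 4 narrow Suz12 peaks lay on chromosome Y between 2782219 and 2888981 (mm9), with Suz12 values of 10.1 to 15.3 and no overlapping H3K27me3 peak. They entered no comparison above and are listed because they number more than 3, which is no test. The X chromosome had 2 narrow peaks, with values of 8.90 and 9.76, of which 1 overlapped H3K27me3. Whether these are Suz12 sites was not tested.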

How the results depend on the processing

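No paired analysis was possible because there is 1 library per antibody, which also leaves none to omit. Of 50 alternatives, 30 stayed within the interval of the value reported, 20 moved outside it (a count: by over 1.5 times) and 0 reversed a difference whose bounds excluded 0. The H3K27me3 width of stand-alone minus satellite peaks changed sign, from -121.5 bp (-623 to 104) to 37 bp at a distance limit of 5000 bp. The number of narrow peaks was 271 at a width limit of 250 bp and 693 at 400 bp, and the satellite share 55.7% and 45.6%. That share was 38.8%, 57.6% and 64.7% at distances of 500, 2000 and 5000 bp, 45.6% in the upper 50% of Suz12 peaks by value, and 64.7% with a Suz12 peak of any width as neighbour. H3K27me3 was at 89.9% of narrow peaks when it had to cover 50% of them, at 99.3% counting 1000 bp around them and at 88.3% for the upper 50% of H3K27me3 peaks. Narrow minus wider peaks, that share differed by -0.10 points within 1000 bp and by -7.42 with the upper 50%. The median domain length was 9057 bp at a joining gap of 1000 bp, 26171 bp at 10000 bp and 15146 bp with the upper 50% of H3K27me3 peaks. At a gap of 1000 bp, 23.0% of narrow peaks were alone in their domain (18.6% at 5000 bp), 29.2% of stand-alone peaks had a wider peak in it and 77.6% of remote peaks were on its strongest H3K27me3 peak. The last share, with alternatives added after seeing the data, was 60.8% at 10000 bp and 70.0% with remote set at 100 kb. The minimum value of 8 and the unknown depth limit what can be said of weaker sites.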
